A study of Mus musculus with 6 samples.

Results

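Plasma cells and the BAFF/APRIL axis were followed through 10 genes: the antibody genes Igha and Jchain, the plasma cell surface gene Sdc1, the regulators Prdm1 and Irf4, the ligands Tnfsf13b and Tnfsf13, and the receptors Tnfrsf13b, Tnfrsf13c and Tnfrsf17. Every probe set whose platform symbol, alone or among several, was 1 of these 10 was taken, which gave 18 of the 45037 probe sets tested. All 10 genes were represented, by 1 to 4 probe sets each, and 17 of the 18 carried a single symbol. No filter on low values was applied, and 3 of the 18 lay below the median level of all probe sets. The arrays came from bone marrow of adult female mice, 3 for each genotype. AKR F1 stands for the cross (AKR/J x FVB/NJ)F1 and DBA F1 for (DBA/2J x FVB/NJ)F1, so all animals carry an FVB/NJ genome copy, and the study asked which genes differ in basal level between the genotypes. The labels name no treatment, and they do not say which animals stand behind an array or whether animals were pooled, so each p-value reflects only how these samples vary, which may be technical. Values are deposited log2 expression levels, which appear to have been scaled between arrays. Differences are AKR F1 minus DBA F1 with the standard error (SE) of limma's fit over all probe sets. Adjusted p-values are Benjamini-Hochberg values over all 45037 probe sets from that fit, with a threshold of 0.05.

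B cells leave the marrow as immature cells, mature in the periphery and, after activation, some become plasma cells that return to the marrow and secrete antibody there for long periods. The cytokines BAFF (encoded by Tnfsf13b) and APRIL (Tnfsf13) keep these cells alive. BAFF binds BAFF-R (Tnfrsf13c), TACI (Tnfrsf13b) and BCMA (Tnfrsf17), whereas APRIL binds TACI and BCMA. BAFF-R is the survival receptor of maturing B cells and BCMA that of marrow plasma cells, and the receptors act through TRAF adaptors and NF-kappa B. Irf4 and Prdm1, which encodes Blimp-1, drive the switch from B cell to plasma cell.

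RefSeq promoter windows of 250 bases before to 50 bases after a start site (build GRCm38.p6) were found for 9 of the 10 genes, in 10 windows. Igha had no entry. The windows of Jchain, Tnfrsf13b and Tnfrsf17 are shown because these genes have 1 probe set each and lay closest to the threshold of the test, the first pair lower and the last higher in AKR F1. Capitals mark matches, on either strand, to any of 5 motifs. The TATA box was searched as TATAAA. The octamer of antibody gene promoters was searched as ATGCAAAT. For the ETS-IRF composite element the letters were GGAA, then any 2 bases, then GAAA. For the interferon response element GAAA had to occur again after any 2 bases. The kappa B site was taken as GGGA followed, after any 4 bases, by CC.
Jchain, chr5:88527848-88528147, minus strand: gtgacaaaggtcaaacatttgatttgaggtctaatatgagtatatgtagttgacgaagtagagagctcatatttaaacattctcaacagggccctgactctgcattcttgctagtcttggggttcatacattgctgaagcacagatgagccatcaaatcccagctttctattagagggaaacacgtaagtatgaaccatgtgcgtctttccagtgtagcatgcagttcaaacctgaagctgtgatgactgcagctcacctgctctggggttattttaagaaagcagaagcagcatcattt
Tnfrsf13b, chr11:61126505-61126804, plus strand: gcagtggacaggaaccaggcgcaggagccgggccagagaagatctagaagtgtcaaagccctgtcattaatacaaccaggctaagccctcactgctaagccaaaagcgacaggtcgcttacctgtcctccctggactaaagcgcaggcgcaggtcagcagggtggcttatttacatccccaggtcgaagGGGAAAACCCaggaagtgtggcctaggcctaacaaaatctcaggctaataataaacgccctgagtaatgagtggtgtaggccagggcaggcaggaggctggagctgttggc
Tnfrsf17, chr16:11313559-11313858, plus strand: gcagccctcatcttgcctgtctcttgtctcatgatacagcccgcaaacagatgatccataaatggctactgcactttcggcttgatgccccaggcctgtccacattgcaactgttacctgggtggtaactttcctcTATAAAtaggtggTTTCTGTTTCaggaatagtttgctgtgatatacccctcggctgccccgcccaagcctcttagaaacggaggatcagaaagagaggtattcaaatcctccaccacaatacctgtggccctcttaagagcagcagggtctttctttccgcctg
The Tnfrsf13b window held a kappa B match, as did 20.7% of the 32851 windows in the table. The Tnfrsf17 window held TATAAA, found in 13.6% of windows, and an interferon response element on the opposite strand, found in 3.44%, and these did not overlap. None of the 5 motifs matched in the Jchain window. No match to the ETS-IRF element or the octamer, present in 2.72% and 1.74% of all windows, was found in any of the 10 windows. These are descriptions of the reference letters, and binding was not measured here.

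Of the 18 probe sets, 1 passed, a probe set of Igha that was lower in AKR F1, and none passed in the other direction. Over all probe sets 12.3% passed, 6.73% lower and 5.57% higher, so at this threshold these genes passed no more often than the rest. No probe set differed by 2-fold. The fitted differences of Jchain (-0.62), the TACI gene Tnfrsf13b (-0.38) and the BCMA gene Tnfrsf17 (0.44) did not pass. A further 6 probe sets had adjusted p-values from 0.0502 to 0.0547 in limma: the other two of Igha and 1 each of Jchain, Tnfrsf13b, Irf4 and Tnfrsf17. Over all probe sets 365, or 0.81%, had adjusted p-values from 0.05 to 0.055. At an unadjusted p under 0.05 there were 9 of the 18, 7 lower and 2 higher, where 27.3% of all probe sets were past it (13.3% lower and 14.0% higher). At an adjusted threshold of 0.1 there were 8, 7 lower and 1 higher, where 18.8% of all probe sets passed (9.67% lower and 9.18% higher). The arrays of the groups did not overlap at 7 of the 18, 5 lower and 2 higher, where 33.0% of all probe sets did not overlap (14.9% lower and 18.1% higher). The median difference was -0.23 over the 18 and 0.03 over all probe sets.

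**Figure D1:**
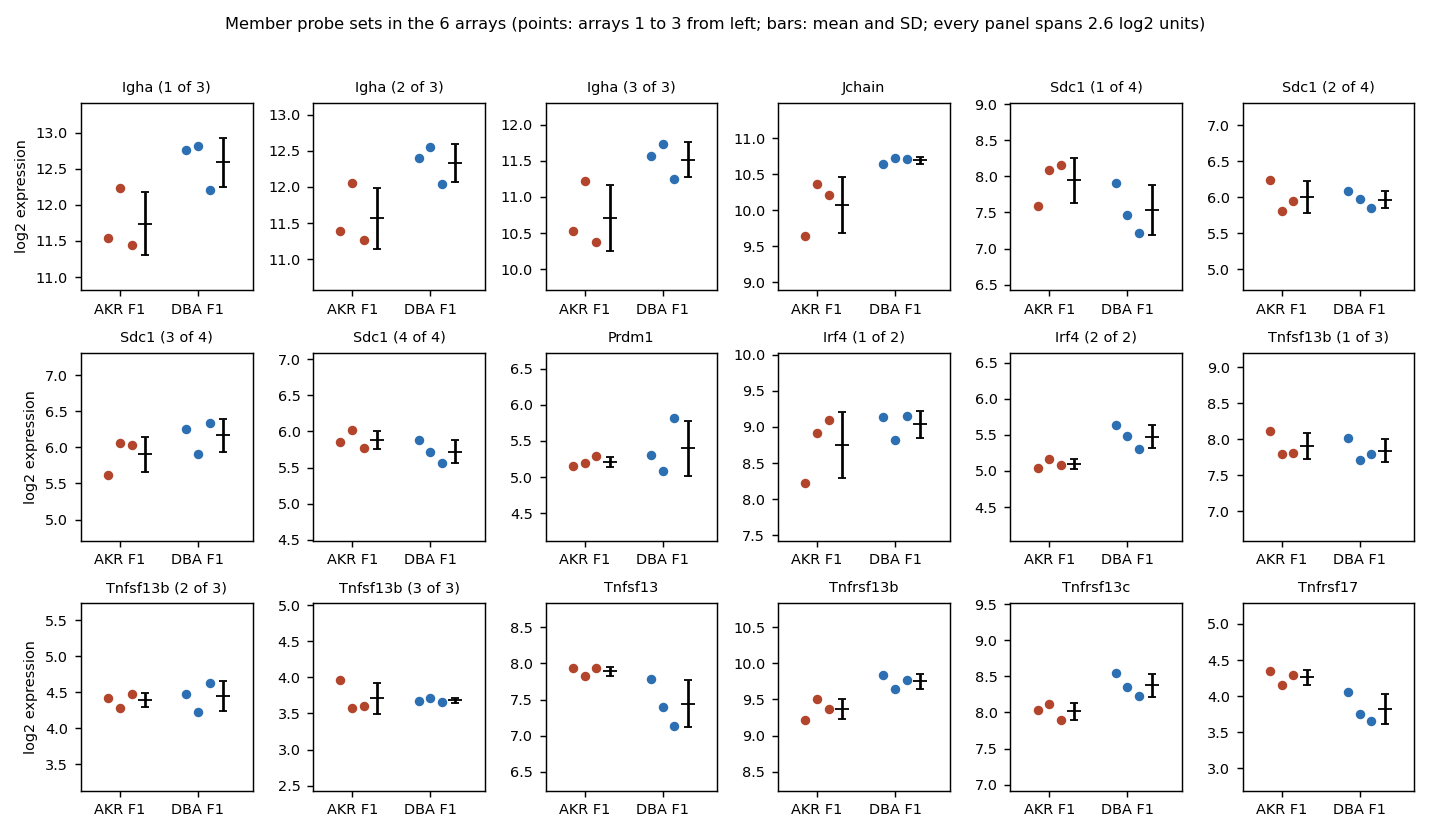
Log2 expression (vertical axis, arbitrary array units) of each of the 18 probe sets in the 3 AKR F1 and 3 DBA F1 arrays, with arrays 1 to 3 from left and the mean and SD beside them; probe sets of 1 gene are numbered from the highest AKR F1 mean. The Jchain, Tnfrsf13b and Tnfrsf13c points of AKR F1 all lie below those of DBA F1, and the Tnfrsf17 and Tnfsf13 points above.

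With the fit restricted to the brightest probe set of each gene, 4 of the 9 genes with a single-symbol probe set passed: Igha (limma's adjusted p = 0.0416), Jchain (0.0454) and Tnfrsf13b (0.0423) lower and Tnfrsf17 (0.0441) higher. In this fit of 18193 genes, 15.2% passed, 9.2% higher and 6.04% lower. The effect sizes are those given below. What differs is which features, and how many, are adjusted over, and the shared variance estimate. With each gene averaged over its probe sets, limma's adjusted p was 0.0436, 0.0454, 0.0332 and 0.0383 for Igha, Jchain, Tnfrsf13b and Tnfrsf17. Whether these genes are counted as called therefore turns on the choice of features.

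Igha encodes the constant region of the IgA heavy chain, the antibody class of mucosal surfaces. Its brightest probe set read 11.54, 12.24 and 11.44 in AKR F1, in replicate order as in all such series, against 12.76, 12.81 and 12.20 in DBA F1 arrays. AKR F1 replicate 2 lay just above the lowest DBA F1 array, and the other AKR F1 arrays lay below all of DBA F1. The difference was -0.86 (SE 0.24), 1.81-fold lower in AKR F1, with limma's adjusted p at 0.0502. A second probe set gave 11.39, 12.05 and 11.26 against 12.40, 12.55 and 12.04, a difference of -0.77 (SE 0.22, limma's adjusted p = 0.0544). At the third AKR F1 read 10.53, 11.22 and 10.37 and DBA F1 11.56, 11.73 and 11.25. Here the groups did not overlap, and the difference of -0.81 (SE 0.22), 1.75-fold lower, passed with limma's adjusted p at 0.0481. The 3 probe sets ranked the arrays alike within each group, with replicate 2 highest and replicate 3 lowest in both crosses. They read 1 gene, so they are not independent measurements. The first and second probe sets passed in 2 of the 6 leave-one-array-out fits. The third passed in 1 of them, that without AKR F1 replicate 2 (adjusted p = 0.0215), and its largest adjusted p was 0.158. Immunoglobulin constant genes resemble each other and differ between strains. For no gene were strain differences in the probed sequence analysed here.

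Jchain encodes the joining chain that links IgA and IgM units into polymers and is made by antibody-secreting cells. Its probe set read 9.64, 10.37 and 10.21 in AKR F1 and 10.64, 10.73 and 10.71 in DBA F1. DBA F1 was tight (SD 0.05) and AKR F1 was spread out (SD 0.39), with replicate 1 lowest. Jchain was 1.54-fold lower in AKR F1, a difference of -0.62 (SE 0.18, limma's adjusted p = 0.0547). The difference was -0.40 to -0.77 in the fits without 1 array and passed in none of the 6.

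Sdc1 encodes syndecan-1 (CD138), the heparan sulphate proteoglycan that marks plasma cells and also lies on epithelial cells. At its brightest probe set AKR F1 read 7.59, 8.09 and 8.16 and DBA F1 7.91, 7.47 and 7.22. The groups overlapped, since AKR F1 replicate 1 lay below DBA F1 replicate 1. The difference was 0.41 with a 95% confidence interval from -0.06 to 0.88 (limma's adjusted p = 0.239). The other probe sets differed by 0.16, 0.03 and -0.26, also with overlapping groups and adjusted p from 0.323 to 0.914. The sign was opposite to that of Igha and Jchain at 3 of the 4 probe sets, but every interval included 0, so no direction can be given for Sdc1. The 4 epithelial markers Epcam, Krt8, Krt18 and Cdh1 had mean levels of 4.95 to 5.05 in AKR F1 and 4.93 to 5.01 in DBA F1, below the array medians, and 0 of 4 passed in limma (1 at an unadjusted p under 0.05).

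Prdm1, the gene of the repressor Blimp-1 that shuts off the B cell programme, read 5.15, 5.19 and 5.29 in AKR F1 and 5.30, 5.08 and 5.82 in DBA F1. DBA F1 replicate 3 stood above the rest, and the groups overlapped. The difference was -0.19, with an interval from -0.59 to 0.21 (limma's adjusted p = 0.541), and 0.02 without that array.

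Irf4, the transcription factor needed for plasma cell formation and also expressed in activated T cells and dendritic cells, had 2 probe sets. The brighter read 8.23, 8.92 and 9.10 in AKR F1 and 9.14, 8.82 and 9.15 in DBA F1. AKR F1 replicate 1 was the lowest array, and the difference of -0.28 had an interval from -0.77 to 0.21 (limma's adjusted p = 0.447). Without that array it was -0.02. The dimmer, near the median of the arrays, read 5.04, 5.17 and 5.08 against 5.64, 5.48 and 5.31. There the groups did not overlap and the difference was -0.38 (SE 0.11, limma's adjusted p = 0.0534). Both probe sets had the same sign, and neither passed.

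Among the ligands, Tnfsf13b, the gene of BAFF, was the more even. Its brightest probe set read 8.11, 7.79 and 7.81 in AKR F1 and 8.02, 7.71 and 7.80 in DBA F1. The groups overlapped fully, and the difference of 0.06 had an interval from -0.22 to 0.34 (limma's adjusted p = 0.805). A pair of dim probe sets differed by -0.05 and 0.02 with levels from 3.57 to 4.63. Tnfsf13, the gene of APRIL, shares its probe set with the neighbouring ligand gene Tnfsf12 and their fusion transcript Tnfsfm13, so the reading cannot be given to 1 of them. It was 7.93, 7.82 and 7.93 in AKR F1 and 7.79, 7.40 and 7.14 in DBA F1. All AKR F1 arrays were above all DBA F1 arrays, with DBA F1 replicate 1 close to AKR F1. The difference was 0.45 (SE 0.16, limma's adjusted p = 0.101), and it was 0.62 and passed without DBA F1 replicate 1 (adjusted p = 0.0173).

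The receptors differed in sign. Tnfrsf13b, which encodes TACI, read 9.22, 9.50 and 9.37 in AKR F1 and 9.84, 9.64 and 9.77 in DBA F1. The groups did not overlap, and TACI was 1.31-fold lower in AKR F1, a difference of -0.38 (SE 0.11, limma's adjusted p = 0.0509). Tnfrsf13c, which encodes BAFF-R, read 8.03, 8.12 and 7.89 against 8.54, 8.35 and 8.23. It too was lower in every AKR F1 array, by -0.36 (SE 0.11, limma's adjusted p = 0.0755). Tnfrsf17, which encodes BCMA, read 4.35, 4.15 and 4.29 in AKR F1 and 4.06, 3.75 and 3.66 in DBA F1. The AKR F1 arrays all lay above those of DBA F1, and the difference was 0.44 (SE 0.12, limma's adjusted p = 0.0528). Its levels reached down to the lower quartile of the arrays (3.68 to 3.75), where a log2 difference can understate a change. Whether this probe set read above background was not tested. Without DBA F1 replicate 1 the Tnfrsf17 difference was 0.56 and passed (adjusted p = 0.0186). Neither TACI nor BAFF-R passed in any of the 6 leave-one-array-out fits.

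**Figure D2:**
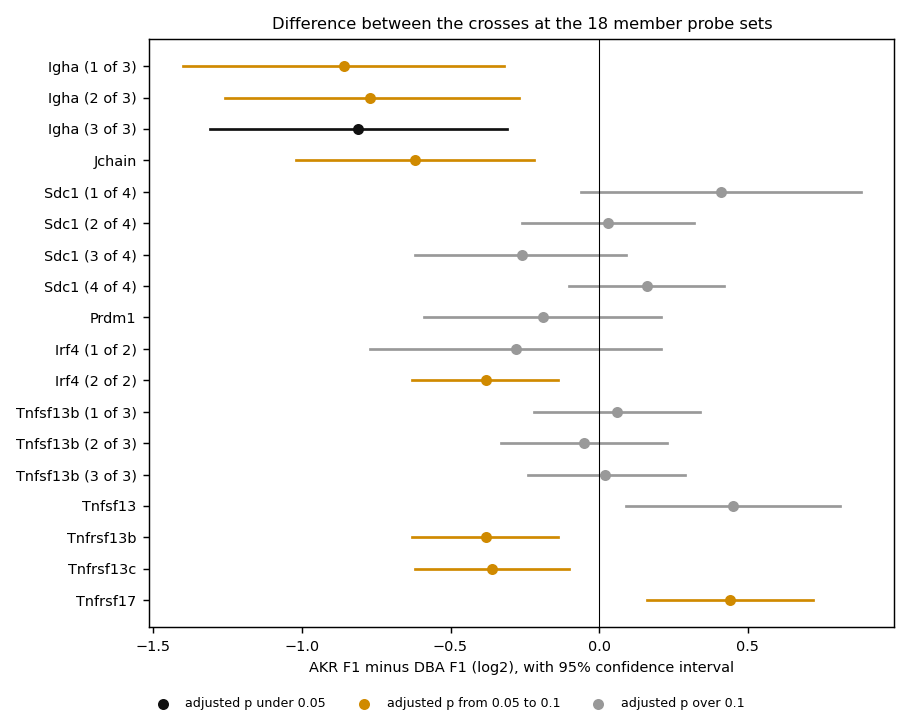
Difference in log2 level (AKR F1 less DBA F1, horizontal axis) at the 18 probe sets, each point with its 95% confidence interval from limma, coloured by adjusted p. The 3 Igha probe sets and Jchain lie furthest to the left, from -0.62 to -0.86, and the intervals of 9 probe sets do not include 0 before adjustment.

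The number of the 18 probe sets that passed moved with the arrays used and with the fit. It was 0 without AKR F1 replicate 1, AKR F1 replicate 3 or DBA F1 replicate 2, 2 without DBA F1 replicate 1, and 3 without AKR F1 replicate 2 or DBA F1 replicate 3. With these arrays left out in the order named, 3918, 1683, 2950, 5581, 1885 and 4036 of all 45037 probe sets passed. The signs of Igha, Jchain, Irf4, Tnfsf13 and the 3 receptors were the same in all 6 of these fits. Measures of processing and skeletal muscle markers also separated the groups. The mean 3' less 5' signal of the Gapdh, actin and poly-A spike controls, a sign of RNA and labelling quality, was 1.25 to 2.03 in AKR F1 and 1.03 to 1.23 in DBA F1. Hybridization controls averaged 10.41 to 10.61 against 10.96 to 11.33. Skeletal muscle markers averaged 7.28 to 8.56 against 9.35 to 12.07, highest in DBA F1 replicate 1. All 6 had lower means in AKR F1, and 4 of them passed. Each of the 3 averages had an exact two-sided permutation p of 0.1, the smallest that 3 against 3 allows. With each in turn as a covariate, 0 of the 18 passed in limma, while 10 (3' to 5' signal), 0 (hybridization controls) and 2 (muscle) had an unadjusted p under 0.05, where 13.7%, 10.5% and 16.4% of all probe sets did. At the adjusted threshold 112, 5 and 65 of all probe sets passed in these fits. The sizes moved with the covariate, and the fits were less precise. Over the 18, the median ratio of the SE to that without a covariate was 1.42 (3' to 5' signal), 2.59 (hybridization controls) and 1.81 (muscle). The difference at the brightest Igha probe set was -1.32, -0.47 and -0.52 with the covariates in the same order, and at the 1 that had passed it was -1.21, -0.40 and -0.58 (limma's adjusted p = 0.182, 0.861 and 0.541). For Jchain it was -1.13, -0.11 and -0.64. For Tnfrsf13b it was -0.59, -0.49 and -0.18, and for Tnfrsf17 0.49, 0.13 and 0.67. The covariates separate the groups, so their part in these differences and that of genotype cannot be told apart.

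**Figure D3:**
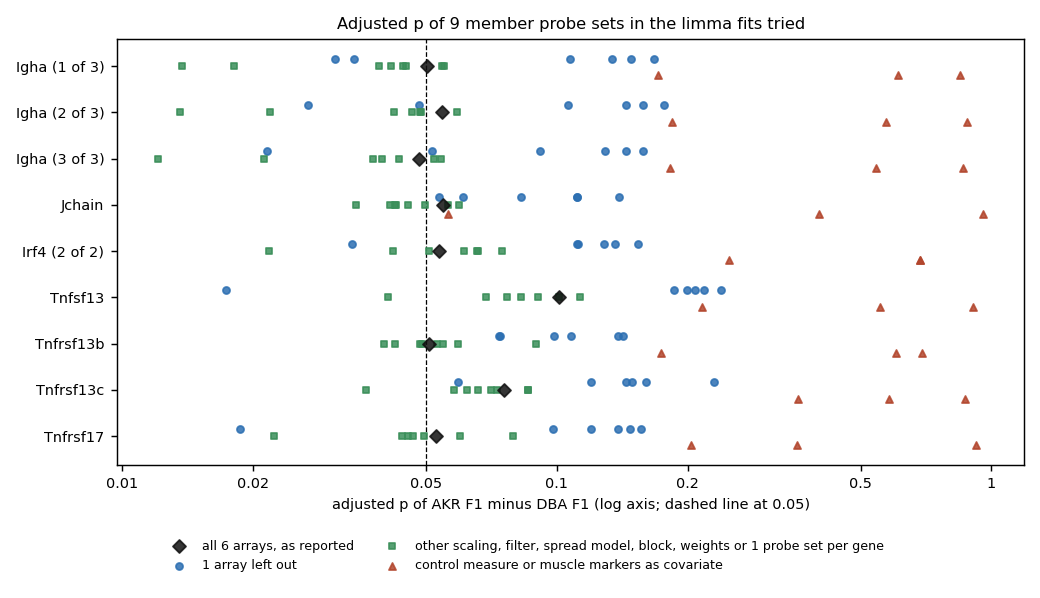
Adjusted p (horizontal log axis, dashed line at 0.05) of the 9 probe sets with an unadjusted p under 0.05, in the fit of all 6 arrays (diamonds), with 1 array left out (circles), with another scaling, filter, spread model, array weights, the replicate block or 1 probe set per gene (squares), and with a covariate (triangles); the test against a 1.2-fold change is not drawn. The diamonds lie between 0.0481 and 0.101, and the triangles all lie to the right of the line.

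In whole marrow, fewer cells of a type and less RNA per cell cannot be told apart, and the levels of other cell types were read beside the plasma cell genes. In the counts of markers and list genes, higher or lower means past the adjusted threshold. The labelled tissue carried its defining markers: the 7 neutrophil markers averaged 13.96 to 13.99 in AKR F1 and 13.60 to 13.92 in DBA F1, with 1 of 7 higher in AKR F1 (Elane, 0.82). The 4 erythroid markers averaged 9.34 to 9.43 against 8.79 to 9.12, with Gata1 (0.68) and Epor (0.66) higher. The probe set read for the globin gene Hba-a1, the brightest with that symbol alone, was dim in both groups (3.70 and 3.68). It is part of the erythroid mean, and the level of globin RNA cannot be judged from it. Of 4 megakaryocyte markers 1 was higher (Gp9, 0.59). Of the 10 plasma cell markers, 6 of which are among the genes studied here, 0 passed in limma (4 at an unadjusted p under 0.05) and the median difference was -0.12. Mzb1, a chaperone of IgM assembly, differed by 0.21, Xbp1, the transcription factor of secretory cells, by -0.06, Derl3 by 0.14 and Slamf7 by -0.31. The mean over the 10 markers was 7.92, 8.28 and 8.16 in AKR F1 and 8.30, 8.21 and 8.19 in DBA F1, so the groups overlapped. Among the 6 B cell markers measured, Ms4a1 and Ebf1 were lower and Cd79a was higher. Of myeloid cells, which make BAFF and APRIL, 3 of 7 monocyte and macrophage markers were higher, with list means of 9.73 to 10.05 against 9.44 to 9.70. All 3 were complement C1q chains (C1qa, C1qb and C1qc, 0.65 to 0.95). The mannose receptor gene Mrc1 had the opposite sign, with all DBA F1 arrays above (-0.40, limma's adjusted p = 0.0696), and Csf1r and Adgre1 differed by 0.10 and 0.02. Of T cell markers 2 of 6 were higher (means of 6.52 to 6.73 against 6.32 to 6.38), and of dendritic cell markers 1 of 6. The part of these cell types in the differences above was not tested.

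The other antibody chains did not share 1 direction. In the list of immunoglobulin chains, 5 genes were measured through a single-symbol probe set, Igha and Jchain among them, and 0 passed in limma (3 at an unadjusted p under 0.05). The median was -0.43 against 0.06 over all genes. The count was 1 without AKR F1 replicate 2, DBA F1 replicate 2 or DBA F1 replicate 3, and 3, all lower, in the fit of 1 probe set per gene. It was 0 with median centring, 3 above the median level and 4, in either direction, with each gene averaged over its probe sets. Ighm, the heavy chain of IgM, was at 12.93 ± 0.39 and 12.64 ± 0.40 (mean ± SD, n = 3 each) at its brightest probe set, a difference of 0.29 (limma's adjusted p = 0.482). Other Ighm probe sets, looked at after their values were seen, gave another picture: of 11 with that symbol alone, 4 passed, all higher in AKR F1, and the range was -0.22 to 1.64. At the one with the second largest difference AKR F1 read 8.36, 9.42 and 8.49 and DBA F1 7.14, 7.77 and 6.54, a difference of 1.61 (SE 0.35, limma's adjusted p = 0.0232). The probe sets of Ighm thus disagree beyond their spread, and Ighm has no single value here. Of 4 probe sets of the lambda light chain (Iglv1, alone or with Iglc1), also chosen after their values were seen, all were lower in AKR F1, by -0.38 to -0.50. The dimmest passed, at 6.66, 6.68 and 6.39 against 7.02, 6.95 and 7.23 (limma's adjusted p = 0.0327). The 3 probe sets that name the kappa constant gene Igkc among several symbols differed by -0.27 to 0.19, and none passed.

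Genes around these 10 were read in 9 lists, each gene at its brightest probe set. Of 132 measured genes in the lists, 14 passed, 11 higher and 3 lower, which is 10.6% where 13.1% of all genes passed (7.9% higher and 5.23% lower). The share is not above the background. The count was 5, 4 and 9 without AKR F1 replicate 2, AKR F1 replicate 3 and DBA F1 replicate 2. It was 10, 18 and 14 without AKR F1 replicate 1, DBA F1 replicate 1 and DBA F1 replicate 3.

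Signalling genes downstream of the receptors had 2 of 18 higher and 0 lower. Rela, a subunit of NF-kappa B, was at 9.99 ± 0.00 against 9.30 ± 0.25, a difference of 0.69 (limma's adjusted p = 0.0138). Nfkb2, the precursor of the subunit that BAFF-R releases through the noncanonical route, was at 7.71 ± 0.08 against 6.98 ± 0.31, a difference of 0.73 (limma's adjusted p = 0.0206), and by 0.25 at its other probe set, which did not pass. Its partner Relb differed by 0.49 and the kinase gene Map3k14, which encodes NIK, by 0.06, and neither passed. The list median was 0.13. The count was 0 without AKR F1 replicate 2 or 3, 1 without DBA F1 replicate 2, 3 when DBA F1 replicate 3 was left out and 4 when DBA F1 replicate 1 was.

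The neighbouring TNF superfamily had 2 of 18 higher and none lower, with a median of 0.16. Ltbr, the lymphotoxin beta receptor gene, differed by 0.73 (7.55 ± 0.05 against 6.82 ± 0.36, limma's adjusted p = 0.0271) and Tnfrsf9, which encodes the costimulatory receptor 4-1BB, by 0.38 (limma's adjusted p = 0.0456). Tnfrsf9 passed in none of the 6 leave-one-array-out fits, and its other probe sets differed by 0.18 or had equal means (3.24). Cd40, the receptor through which T cells help B cells, differed by -0.06. The list count was 1 without DBA F1 replicate 1 or DBA F1 replicate 3 and 0 without any 1 of the other arrays.

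In the plasma cell programme, 1 of 16 genes passed: Pdia4, a protein disulphide isomerase of the endoplasmic reticulum, at 7.50 ± 0.09 against 6.76 ± 0.08, a difference of 0.74 (limma's adjusted p = 0.00481). Its dim second probe set did not pass (0.22). The median was -0.09, and the coactivator Pou2af1 and the elongation factor Ell2, which shapes secretory antibody transcripts, differed by -0.34 and -0.28 without passing. The secretory pathway list had 4 of 21 higher and none lower, with a median of 0.08. Sdf2l1, a partner of the chaperone BiP, was at 8.49 ± 0.05 against 6.89 ± 0.12, 3.02-fold higher (limma's adjusted p = 0.000248). Creld2 differed by 0.61, and the degradation factors Sel1l and Edem1 by 0.49 each (limma's adjusted p = 0.0189 to 0.036). A second probe set of Edem1 had equal means (8.57), and 3 of the 4 other probe sets of Sel1l had the opposite sign, from -0.10 to -0.56, none past the test. Hspa5, which encodes BiP itself, differed by -0.30. The secretory count was 1 without AKR F1 replicate 2 or 3 and 2 without AKR F1 replicate 1. Without DBA F1 replicates 1, 2 and 3 in turn it was 5, 3 and 4. Sdf2l1 passed in all 6 leave-one-array-out fits, Sel1l in 4, Edem1 in 2 and Creld2 in 1.

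The B cell programme that plasma cells silence had 2 of 12 lower and none higher. Ms4a1, which encodes CD20, differed by -0.99 (8.80 ± 0.26 against 9.79 ± 0.14, limma's adjusted p = 0.00659) and Ebf1, an early B lineage factor, by -0.86 (limma's adjusted p = 0.0147). The second probe set of Ms4a1 differed by -0.84 and passed, as did 2 of the 4 others of Ebf1, by -0.62 and -0.59. Pax5 and Bcl6, the opponents of Prdm1, differed by 0.03 and -0.01. Mature B cell genes had 1 of 13 lower, Ms4a1, and 1 higher, Cd79a, a signalling chain of the B cell receptor (10.63 ± 0.14 against 9.31 ± 0.74, limma's adjusted p = 0.0302). Cd79a passed in 2 of the 6 leave-one-array-out fits. Of the 12 pro-B and pre-B cell genes 0 passed in limma (2 at an unadjusted p under 0.05), and the brightest, Myb and Cd93, differed by -0.07 and 0.23. The mature B cell count of 2 was 1 without any 1 of the AKR F1 arrays or DBA F1 replicate 2, but 3 when DBA F1 replicate 1 was left out. The pro-B and pre-B count was 1 without AKR F1 replicate 1.

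Genes of plasma cell homing and the niche had 1 of 22 higher and 1 lower, with a median of -0.03. Mif, a cytokine that binds CD74, was at 11.06 ± 0.04 against 10.45 ± 0.24 (limma's adjusted p = 0.02). Its other probe sets were dim and differed by 0.35 and 0.06, neither past the test. Itgb1 encodes the beta chain of the integrin VLA-4 that holds plasma cells to stroma. It differed by -0.50 (9.36 ± 0.18 against 9.87 ± 0.17, limma's adjusted p = 0.0385). Its next probe sets differed by -0.63 and -0.43, both past the test. The rest were dim (2.73 to 2.99) and differed by -0.06 to 0.06, none past it. At its brightest probe set Itgb1 passed in 2 of the 6 leave-one-array-out fits. Its partner Itga4 differed by -0.04. Cxcl12, the chemokine that brings plasma cells to the marrow, differed by -0.10 and its receptor gene Cxcr4 by 0.10, and the survival cytokine gene Il6 by 0.62, with 1 AKR F1 array at 7.30 and the others from 3.70 to 4.66 (limma's adjusted p = 0.674). The count of 2 was 0 without AKR F1 replicate 2 or 3, 1 without DBA F1 replicate 2 or DBA F1 replicate 3 and 3 without DBA F1 replicate 1.

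**Figure D4:**
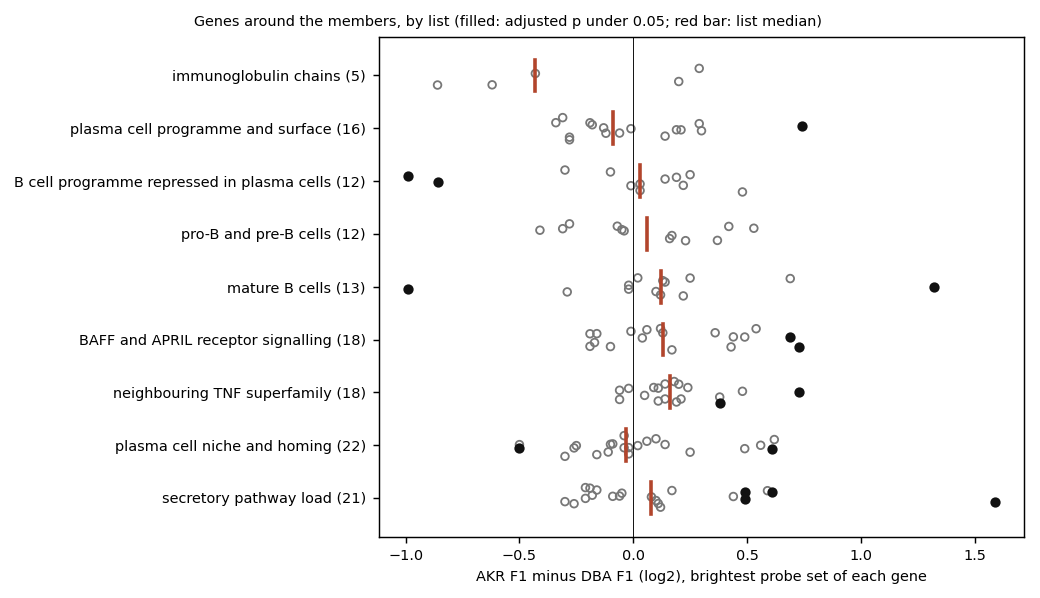
Difference in log2 level (AKR F1 less DBA F1, horizontal axis) for each gene of the 9 lists at its brightest probe set, with the number of genes measured in brackets; filled points have an adjusted p under 0.05 and red bars are list medians. Filled points lie to the right in the secretory, signalling and TNF superfamily lists, and the Igha and Jchain points lie furthest left among the antibody chains.

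The genes whose levels over the 6 arrays were most like those of Igha, Jchain and Tnfrsf17 were taken from 11541 genes above the median level. For Igha they were Atg12, Amy1, Ctsg, Ctnna1 and Cdc14a, with Pearson r of 0.968 to 0.994. Those for Jchain were Utrn, Vcl, Uimc1, Akap9 and Polr1d, with r of 0.990 to 0.994. For Tnfrsf17 they were E230016M11Rik, Dnase1l3, Tmem176a, Esrra and C1ra, with r of 0.993 to 0.998. Of the 11541 genes, 11, 77 and 285 had r above 0.95 with Igha, Jchain and Tnfrsf17. The coefficients rest on 6 arrays in a pair of groups and describe these arrays only.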

How the data were processed

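Gene expression was measured with Affymetrix arrays, 1 per sample, on total RNA extracted with Trizol from snap-frozen marrow, per the labels' protocols. The deposited values are log2 expression levels of 45101 probe sets. Their array medians (5.14 to 5.19) nearly coincide, so they appear to have been scaled between arrays before deposit. RMA and MAS5 are listed in the submitters' processing notes with nothing on which made the values, and detection calls, scan dates and hybridization batches were not used here. Tests omitted 64 control probe sets.

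Groups and replicate numbers came from the titles. limma 3.58.1 (R 4.3.3) was fitted with empirical Bayes moderation to all 45037 probe sets, two-sided. The genes studied, the 9 gene lists and the tests were chosen with earlier results of these data known. Named genes were every probe set of the 10 genes, up to 6 genes past the test per list (otherwise the brightest 2), and the 5 nearest patterns of Igha, Jchain and Tnfrsf17. Other list genes given with values that did not pass were chosen after their values were seen. Symbols were updated by gene ID to GRCm38.p6: 34945 probe sets had 1 symbol, 932 several and 9160 none.

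Alternatives changed the scaling (quantile, median), dropped dim probe sets at either of 2 limits, changed the spread model (trend and robust, array weights), blocked on replicate, left out each array, moved the threshold, tested beyond 1.2-fold and averaged a gene's probe sets. Added after seeing the data were 3 covariates and 1 probe set per gene. On simulated data (45037 probe sets, 200 changed) the fit recovered 18% of 1.5-fold and 59% of 2-fold changes among brighter probe sets, with 2 false among 79 calls. The adjustment depends on how many probe sets pass, and 5541 passed in the real data. These shares therefore do not give the sensitivity of the reported test.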

Additional observations from a re-analysis of the deposited data

How the results depend on the processing

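The precision is limited by 6 arrays. With 5541 of all probe sets, 1 of the 18 and 14 list genes past the test as reported, the counts in the same order were 5832, 2 and 17 with quantile normalization and 5301, 0 and 14 with median centring. They were 5579, 6 and 20 above the median level, 5599, 6 and 16 above the lower quartile, 5410, 5 and 15 with a variance trend and robust estimation, and 7571, 8 and 22 with array weights. A test against a 1.2-fold change gave 901, 0 and 3, a threshold of 0.01 gave 1214, 0 and 3, and a threshold of 0.1 gave 8489, 8 and 26. Averaging each gene over its probe sets gave 26 list genes and 1 probe set per gene 20. Without 1 array the counts ranged from 1683 to 5581, 0 to 3 and 4 to 18. Covariates gave 112, 0 and 2 (3' to 5' signal), 5, 0 and 0 (hybridization controls) and 65, 0 and 1 (muscle markers). The cause of these shifts was not tested.

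Same-numbered arrays of the crosses did not deviate together (r of 0.05, 0.02 and 0.08 for numbers 1 to 3), so the numbers are taken as names only. With the replicate block the counts were 5321, 5 and 21.

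Among the 18, only probe sets that did not pass changed sign. Quantile normalization gave -0.00465 for the dimmest probe set of Tnfsf13b. Array weights gave 0.0512 and -0.0279 for the dimmer pair of Tnfsf13b and -0.00982 for the second of Sdc1. The 3' to 5' signal as covariate gave -0.0963 for the first of Sdc1 and 0.0306 for the second of Tnfsf13b. Hybridization controls gave -0.24 for the second of Sdc1 and -0.15 and -0.46 for the dimmest and brightest of Tnfsf13b, and muscle markers 0.0393 and -0.0298 for its dimmer pair. Without 1 array, the second probe set of Sdc1 ranged from -0.0909 to 0.12, those of Tnfsf13b, from brightest to dimmest, from -0.0403 to 0.15, -0.16 to 0.0405 and -0.0973 to 0.0966, and Prdm1 from -0.35 to 0.0216. In no alternative did Igha, Jchain, Irf4, Tnfsf13 or a receptor gene change sign.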
